A study of Mus musculus with 6 samples.

Results

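The genes described here are targets of the transcription factor p53 together with inhibitors of the cell cycle. They are a list of 34 gene symbols, found by symbol in the deposited count table of 25189 genes. A row was present for 33 of the 34, and all 33 passed the filter on low counts that left 14184 genes to test. Perp, a desmosome protein linked to cell death, was not analysed here. The rule for the list uses gene symbols only and no measured value. The members, and the wider lists used below, were however chosen with earlier results of these data known.

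The RNA came, by its labels, from kidneys of male, wild-type (WT) C57BL/6 mice at day 2. The control group held 3 libraries labelled IR, for ischaemia and reperfusion (I/R), in which the blood flow of the kidney is stopped and restored. The other group held 3 libraries labelled IR and C9, for that injury plus chemerin-9, a short active peptide of the chemerin protein. By these labels all 6 libraries come from injured animals, and no uninjured group was analysed here. The sources used here give no dose or route for the peptide. The table names the treated columns IC, while the labels give other column names for these samples, so the reading of IC as I/R with C9 was not checked against a label, and every direction below rests on it. The titles name C9 for all 3 treated samples, while their treatment field reads C9, C10 and C11. The batch field gives every library a value of its own, so batch and treatment cannot be told apart. No label ties a library to a separate mouse, and the p-values therefore cover only library-to-library spread, which may be technical.

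In most cells p53 is made constantly and destroyed at once, because the ligase MDM2 marks it for breakdown and MDM4 holds it inactive. DNA damage and other stress release it, and it then switches on genes that stop the cell cycle, repair DNA, feed back on p53 or start cell death. Its best known target is Cdkn1a, whose product p21 blocks cyclin-dependent kinases (CDKs), and in the injured kidney p21 is known as a marker of tubule cells that have stopped dividing. The INK4 and other CIP/KIP inhibitors also hold CDKs, partly without p53.

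The libraries held between 11217252 and 16938301 counts. The 8 nephron and collecting duct markers with a row summed to between 7.20 and 7.73 CPM (counts scaled to a common library size) in a library of I/R and between 7.59 and 8.603 CPM with chemerin-9, and none reached a mean of 10 CPM. The 7 markers of endothelium, leukocytes and red cells summed to between 4.92 and 7.69 CPM across all 6 libraries, with the haemoglobin gene Hbb-bs at 0 in each. The 8 fibroblast and mesenchymal markers summed to between 2690 and 2815 CPM in I/R and between 2136 and 2218 CPM with chemerin-9, with Vim the most abundant. These markers did not move together. The means of Vim (1366 to 853 CPM), Col1a2, Acta2 and Pdgfra were lower with chemerin-9. Those of Col1a1 (771 to 800 CPM), Col3a1, Pdgfrb (35.1 to 49.2 CPM) and Dcn, itself near 2 CPM, were higher. The markers of kidney tubules were thus nearly absent from libraries labelled as kidney. Whether these cell type markers play a part in the results was not tested. Replicate 3 of I/R stood apart from the rest of its group, its chi-square over degrees of freedom being 5.14 and 5.61 against the others, where the pair of others gave 1.80 and the pairs with chemerin-9 gave 1.90 to 2.17. The mitochondrial share of counts ranged from 2.81% to 2.94% for I/R libraries and from 2.56% to 2.64% for treated libraries, the 18S share from 0.381% to 0.517% and from 0.261% to 0.306%, and their part in the results was not tested. In bulk RNA, fewer cells of a type and less RNA per cell cannot be told apart.

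The p53 protein binds DNA as a pair of decamers, 10-base runs that fit the p53 response element consensus, and the stretches around such decamers are shown to set the members' start sites beside their changes. RefSeq windows (GRCm38.p6) from 250 bases before to 50 bases after a start site were present for 27 of the 34 members. Trp53inp1, Ddb2, Perp, Zmat3, Rrm2b, Tnfrsf10b and Xpc are named only. An exact decamer lay in a window of 9 of these 27 members, or 33.3%, against 9.55% of all 27025 genes in the table, and the consensus reads the same on both strands. Each line gives 10 bases on either side, 5′ to 3′ on the strand of the gene, with the decamer in capitals.

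Trp53: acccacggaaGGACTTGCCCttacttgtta

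Mdm2: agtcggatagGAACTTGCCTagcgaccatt

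Ccng1: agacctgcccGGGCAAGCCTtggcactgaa

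Ei24: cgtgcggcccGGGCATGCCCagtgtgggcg

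Polk: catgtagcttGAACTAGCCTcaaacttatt

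Gadd45a: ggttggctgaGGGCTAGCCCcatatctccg

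Gtse1: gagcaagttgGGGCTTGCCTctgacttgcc

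Aen: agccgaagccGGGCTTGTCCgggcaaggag

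In Trp53 (chr11:69580274-69580303, plus strand), Mdm2 (chr10:117710925-117710954, minus strand), Ccng1 (chr11:40755452-40755481, minus strand), Ei24 (chr9:36797325-36797354, minus strand), Polk (chr13:96519399-96519428, minus strand) and Gadd45a (chr6:67037428-67037457, minus strand) the decamer began upstream of the start site, by 75, 186, 185, 10, 231 and 40 bases. In Gtse1 (chr15:85859945-85859974, plus strand) it began at base 10 of the transcript. In Aen (chr7:78895927-78895956, plus strand) it began 121 bases upstream of the downstream start site and at base 11 from the other. Cdkn1a was the only member with 2 exact decamers spaced closely enough to form a full element, with 12 bases between them, where up to 13 were allowed. Only 20 of the 27025 genes, or 0.074%, held such a pair. It lies before the upstream start site of Cdkn1a, 2790 bases before the other, and the 250 bases up to that start (chr17:29090729-29090978, plus strand) are shown for context.

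Cdkn1a: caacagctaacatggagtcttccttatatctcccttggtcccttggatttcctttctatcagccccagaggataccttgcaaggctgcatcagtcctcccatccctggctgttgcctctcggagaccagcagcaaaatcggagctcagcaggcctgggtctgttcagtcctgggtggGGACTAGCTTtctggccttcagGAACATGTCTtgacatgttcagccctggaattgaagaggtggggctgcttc

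These 9 genes did not move in 1 direction. With chemerin-9, Cdkn1a, Gadd45a and Gtse1 fell, Aen rose, and Trp53, Mdm2, Ccng1, Ei24 and Polk did not pass the test. Of all tested genes, 51.7% passed. A match is a description of the letters in a window. Decamers with a mismatch were not searched for, so the windows may hold elements that are not marked here. In Cdkn1a the bases directly after the second decamer, tgacatgttc, miss the consensus at 1 base and stay unmarked. Whether p53 uses the marked pair was not tested. No count over these 9 was tested.

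With chemerin-9, 14 of the 33 tested members were lower and 4 were higher at a Benjamini-Hochberg adjusted p under 0.05 (edgeR's quasi-likelihood test, adjusted over all 14184 genes), and 15 did not pass. The falls took in the CDK inhibitors Cdkn1a, Cdkn1b and Cdkn2c, the stress kinase Plk3, the p53 partner Trp53inp1 and the apoptosome genes Apaf1 and Casp9. The rises took in the exonuclease Aen, Gadd45b, and, at small size or low level, Zmat3 and Sfn. Trp53 and Mdm2 stayed within 1.04-fold and did not pass. The 18 changed members are 54.5% of those tested, and 51.7% of all tested genes changed, so the share of changed members was close to that of any genes. By direction, 42.4% of the members were lower against 26.1% of all genes, and 12.1% were higher against 25.6%. The median log2 fold change was -0.17 over the members and -0.0037 over all genes tested, with no test of the list as a whole. The values of the 3 and 3 libraries did not overlap for 18 members, or 54.5%, against 58.5% of all tested genes. Changes of at least 1.5-fold that passed the test were seen in 6 members, or 18.2%, against 15.9% of all genes. These were Plk3, Trp53inp1, Casp9 and Cdkn2c among the falls and Aen and Sfn among the rises.

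**Figure D1:**
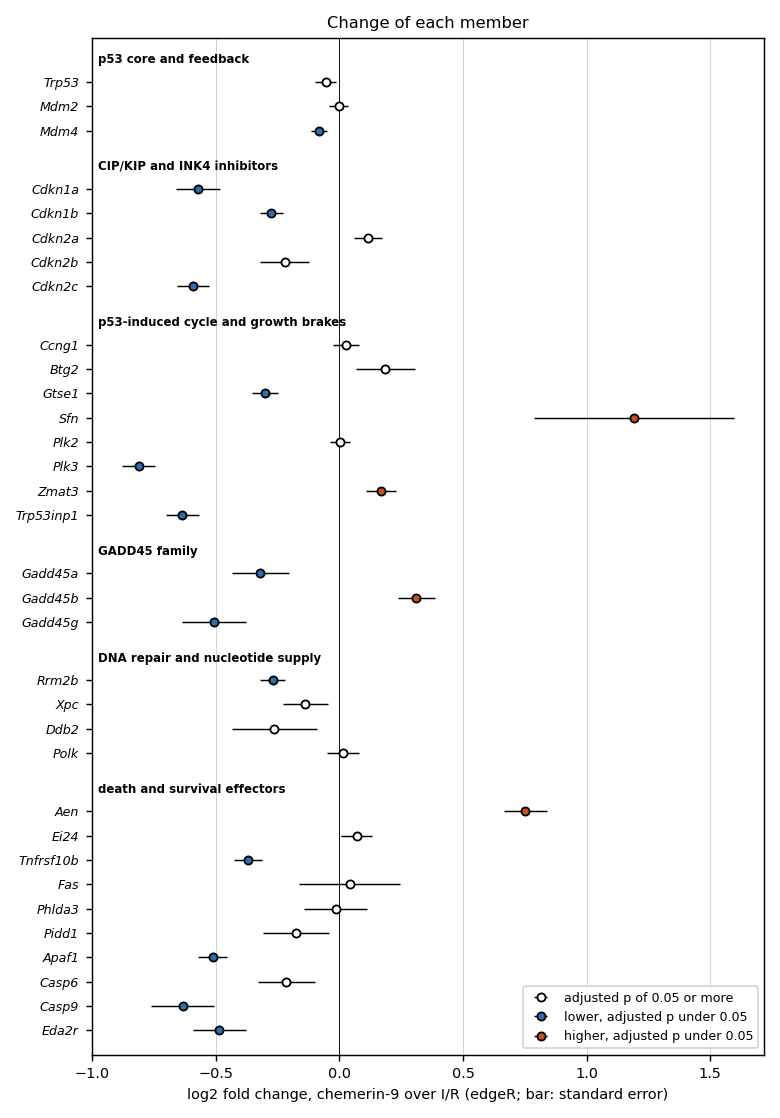
The log2 fold change of chemerin-9 over I/R is plotted for each of the 33 tested members, ordered by role, with the standard error as a bar and filled points for an adjusted p under 0.05. The 14 falls reach -0.81 in Plk3, and of the 4 rises Aen (0.75) and Sfn (1.19) lie farthest from 0.

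**Figure D2:**
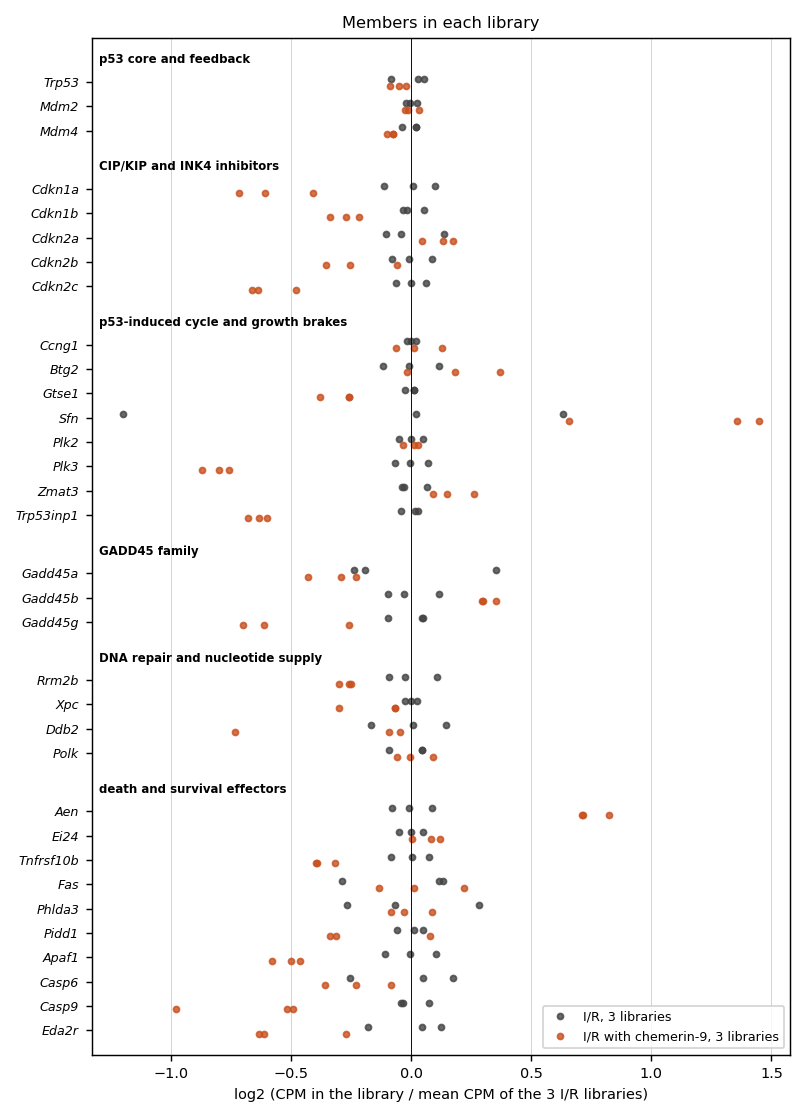
Each point is 1 library, as the log2 of its CPM over the mean of the 3 I/R libraries, for the 33 members. The chemerin-9 points lie wholly to the left of the I/R points for Plk3, Cdkn2c and Trp53inp1 and wholly to the right for Aen, while those of Mdm2 and Plk2 are mixed.

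The RNA of the genes at the centre of the pathway was nearly level, and no protein was analysed here. Trp53, which encodes p53 itself (chromosome 11, 69580359 to 69591873, ENSMUSG00000059552, GRCm38), held 168, 155 and 170.3 CPM in I/R and 159, 162 and 155 CPM with chemerin-9. Mdm2, its ligase and itself a p53 target (chromosome 10, 117688875 to 117710758), held 135, 136 and 139 CPM against 136, 134 and 139.7 CPM. The libraries of the groups were interleaved for both genes, and neither passed (log2 fold change -0.055 and adjusted p = 0.30 for Trp53, -0.0023 and 0.97 for Mdm2, edgeR). The standard error of the Mdm2 change was 0.04 on the log2 scale. Mdm4, the partner of MDM2 that masks the activation domain of p53, held 299, 311 and 311 CPM in I/R and 291, 287 and 292 CPM with chemerin-9. Every chemerin-9 library was below every I/R library, but by a fold of only 1.06 (edgeR, log2 fold change -0.083 at an adjusted p of 0.048). That call was lost without any 1 of replicates 2 and 3 of I/R or replicates 1, 2 and 3 of chemerin-9 (adjusted p = 0.053 to 0.13), with DESeq2 (0.075), without the low-count filter (0.058) and with upper quartile size factors (0.099). With library totals alone it had a log2 fold change of -0.015, and after correction for GC content and length it fell by 0.21.

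Of the 5 CDK inhibitors among the members, Cdkn1a and Cdkn1b of the CIP/KIP family and Cdkn2c of the INK4 family fell. The changed ones are 60.0%, against 51.7% of all tested genes. Cdkn1a, which encodes p21 (chromosome 17, 29090979 to 29100722, ENSMUSG00000023067), held 36.7, 31.7 and 34.5 CPM in I/R and 22.5, 25.9 and 20.8 CPM with chemerin-9. All chemerin-9 libraries lay under the lowest I/R library, and the mean went from 34.3 ± 2.50 to 23.1 ± 2.56 CPM (SD, n = 3 each), a fall of 0.57 on the log2 scale (with a standard error of 0.09 and an edgeR adjusted p of 7.9e-05). Cdkn1b, which encodes p27, a brake on CDK2, held 123, 122 and 129 CPM against 98.7, 103 and 107 CPM. The groups again did not overlap (edgeR, log2 fold change -0.27 at an adjusted p of 1.3e-04). Cdkn2c, which encodes the CDK4 and CDK6 inhibitor p18 (chromosome 4, 109660876 to 109667189), held 58.1, 63.4 and 60.7 CPM in I/R and 38.3, 43.5 and 39.0 CPM with chemerin-9. The fall was 1.51-fold (log2 fold change -0.59 with a standard error of 0.06 and an edgeR adjusted p of 2.1e-06), next to 1.49-fold for Cdkn1a, and the order of these falls turned in some alternatives.

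Cdkn2b and Cdkn2a, the other INK4 genes among the members, did not pass. Cdkn2b, which encodes p15 (chromosome 4, 89306289 to 89311032), held 21.6, 19.2 and 20.2 CPM in I/R and 19.5, 15.9 and 17.1 CPM with chemerin-9, and its highest chemerin-9 library lay above the lowest of I/R (edgeR, log2 fold change -0.22 at an adjusted p of 0.073). Without replicate 1 of chemerin-9 it passed (edgeR, log2 fold change -0.31 at an adjusted p of 0.029). Cdkn2a, whose locus encodes both the INK4 inhibitor p16 and the MDM2 inhibitor p19ARF from separate start exons (chromosome 4, 89274471 to 89294653), held 139, 133 and 158 CPM against 157, 162 and 148 CPM. Counts per gene cannot tell its products apart. Its log2 fold change was 0.12 (with a standard error of 0.06 and an edgeR adjusted p of 0.10). The I/R library at 158 CPM was replicate 3, and without it Cdkn2a passed as higher (edgeR, log2 fold change 0.19 at an adjusted p of 2.8e-04). It passed at 0.35 after correction for GC content and length (adjusted p = 1.3e-06, edgeR), at 0.18 with library totals alone and at 0.11 with no filter on low counts.

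Of the 8 genes that p53 induces to slow growth or that act on the cycle beside it, 3 fell, 2 rose and 3 did not pass. The changed ones are 62.5%, against 51.7% of all tested genes. Plk3, a polo-like kinase of the stress response, fell by 1.75-fold. It held 48.3, 46.2 and 50.9 CPM in I/R and 27.8, 28.7 and 26.5 CPM with chemerin-9, and the groups did not overlap (log2 fold change -0.81 with a standard error of 0.07 and an edgeR adjusted p of 1.3e-07). Its relative Plk2, also a p53 target, held 178, 172 and 167 CPM against 176, 168 and 174 CPM, fully interleaved (log2 fold change 0.0025 with a standard error of 0.04 and an edgeR adjusted p of 0.96). Trp53inp1, which helps p53 to induce death genes and also takes part in autophagy, held 39.3, 39.7 and 37.7 CPM in I/R and 24.3, 25.1 and 25.7 CPM with chemerin-9. The groups lay far apart, and the fall was 1.55-fold (edgeR, log2 fold change -0.63 at an adjusted p of 1.8e-06). After correction for GC content and length, Trp53inp1 fell by 0.80 and Plk3 by 0.68 on the log2 scale, so their order depends on that correction.

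Gtse1, a microtubule-associated protein of G2 that restrains p53, fell without overlap from 70.3 ± 1.09 to 57.1 ± 2.75 CPM (edgeR, log2 fold change -0.30 at an adjusted p of 2.2e-04). Ccng1, the cyclin G1 gene and a long-known p53 target, held 86.4, 87.4 and 85.1 CPM against 94.2, 82.7 and 87.1 CPM, with the chemerin-9 libraries on both sides of I/R (adjusted p = 0.70, edgeR). Btg2, an antiproliferative factor that acts on mRNA decay, was at 13.3 ± 1.07 and 15.1 ± 2.01 CPM (adjusted p = 0.20, edgeR). Zmat3, an RNA-binding protein induced by p53, rose without overlap from 49.1 ± 1.97 to 55.2 ± 3.28 CPM (edgeR, log2 fold change 0.17 at an adjusted p of 0.029). The Zmat3 call was lost without replicate 1 or 3 of I/R or replicate 1 or 3 of chemerin-9 (adjusted p = 0.055 to 0.16), with DESeq2 (0.068) and on removing the trend on GC content and length, where the log2 fold change was 0.087. Sfn, the 14-3-3 sigma gene of epithelia, was the weakest member, at 4, 15 and 12 raw counts in the I/R libraries and 13, 25 and 28 in the treated ones. As CPM these were 0.313, 1.11 and 0.728 against 1.13, 1.84 and 1.96, so the lowest chemerin-9 library was just above the highest of I/R (log2 fold change 1.19 with a standard error of 0.40 and an edgeR adjusted p of 0.023). Leaving out replicate 1 of I/R, replicate 2 of chemerin-9 or replicate 3 of chemerin-9 ended the Sfn call (adjusted p = 0.091, 0.082 and 0.104, edgeR). A processed pseudogene, Gm7850, matches Sfn at 97.5% identity and stayed at or under 0.235 CPM.

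The GADD45 family, small stress proteins that act on MAP kinase signalling and on the cell cycle, moved in different directions. Gadd45b held 25.4, 24.3 and 28.2 CPM in I/R and 31.9, 33.2 and 31.8 CPM with chemerin-9, so that every treated library was higher (edgeR, log2 fold change 0.31 at an adjusted p of 0.0031). Gadd45g held 13.5, 12.2 and 13.5 CPM against 8.02, 10.9 and 8.53 CPM, all treated libraries lower (edgeR, log2 fold change -0.51 at an adjusted p of 0.0042). With the GC and length trend taken out, Gadd45b rose by 0.47 and Gadd45g fell by 0.30 on the log2 scale. Gadd45a, the family member that p53 induces, held 112, 116 and 169 CPM in I/R and 98.3, 108 and 113 CPM with chemerin-9. Its groups overlapped, and the high I/R value was again that of replicate 3. The Gadd45a call (edgeR, log2 fold change -0.32 at an adjusted p of 0.030) was lost without that library, with a log2 fold change of -0.098 and an adjusted p of 0.103. It was lost too with DESeq2 (adjusted p = 0.22), with a robust prior (0.26), with library totals alone (0.077) and without replicate 1, 2 or 3 of chemerin-9 (0.129, 0.083 and 0.059). Of the exon bases of Gadd45a, 19.5% are shared with a gene on the opposite strand, E230016M11Rik, and although the labels name a stranded kit, the sources used here do not give the strand setting of the counting. Cdkn1a shares 273 exon bases in this way, and Rrm2b, Plk3, Ei24 and Casp9 share between 2.4% and 5.7% of theirs.

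Of the genes for DNA repair and nucleotide supply, only Rrm2b passed, or 25.0%, against 51.7% of all tested genes. Rrm2b, the p53-induced subunit of ribonucleotide reductase that supplies nucleotides outside S phase, held 139.7, 160.3 and 146 CPM in I/R and 125, 121 and 124 CPM with chemerin-9. The groups did not overlap (log2 fold change -0.27 with a standard error of 0.05 and an edgeR adjusted p of 2.9e-04), and the fall was 0.42 with the GC and length trend taken out. Xpc, the damage sensor of nucleotide excision repair, was at 21.9 ± 0.363 and 19.9 ± 1.81 CPM, also without overlap, and did not pass (edgeR, log2 fold change -0.14 at an adjusted p of 0.22). Ddb2, its partner in finding UV damage, was at 9.20 ± 0.994 and 7.69 ± 1.88 CPM, with 79 to 137 counts per library (log2 fold change -0.26 with a standard error of 0.17 and an edgeR adjusted p of 0.21). Of its exon bases, 26.7% are shared with Acp2 on the opposite strand. Polk, a polymerase that copies past damaged bases, was at 44.9 ± 2.44 and 45.2 ± 2.40 CPM (adjusted p = 0.88, edgeR).

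Among the 10 tested effectors of cell death and survival, 4 fell, 1 rose and 5 did not pass. By comparison, 26.1% of all tested genes were lower, 25.6% were higher and 51.7% passed in either direction. The share of these effectors that passed was thus close to that of any genes. Apaf1, the scaffold of the apoptosome that senses cytochrome c, held 96.8, 89.9 and 83.6 CPM in I/R and 65.3, 63.7 and 60.4 CPM with chemerin-9. Casp9, the caspase that this scaffold activates, held 15.9, 14.8 and 14.7 CPM against 7.67, 10.8 and 10.6 CPM. For both genes all treated libraries lay under all I/R libraries, with falls of 1.43-fold (edgeR, log2 fold change -0.51 at an adjusted p of 3.6e-06) and 1.55-fold (-0.63, adjusted p = 7.2e-04). Aen, a nuclease that p53 induces and that degrades DNA in dying cells (chromosome 7, 78895854 to 78911209, ENSMUSG00000030609), moved the other way. It held 15.6, 16.6 and 14.9 CPM in I/R and 27.8, 25.8 and 25.7 CPM with chemerin-9, a rise of 1.68-fold with no overlap (log2 fold change 0.75 with a standard error of 0.09 and an edgeR adjusted p of 4.2e-06).

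Of the 3 receptors of the tumour necrosis factor receptor superfamily, Tnfrsf10b and Eda2r fell and Fas did not pass, and differences between them were not tested. Tnfrsf10b, the mouse receptor for TRAIL, held 63.5, 71.0 and 67.5 CPM in I/R and 51.1, 54.0 and 51.3 CPM with chemerin-9, a fall of 1.29-fold without overlap (adjusted p = 6.8e-05, edgeR). Eda2r, a receptor of the same superfamily for ectodysplasin A2, held 31.3, 29.6 and 25.4 CPM against 18.6, 18.8 and 23.9 CPM. The libraries nearest to each other were those at 25.4 and 23.9 CPM, and the groups did not overlap (edgeR, log2 fold change -0.49 at an adjusted p of 0.00155). Fas, the receptor for Fas ligand, was low, at 3.84, 2.90 and 3.88 CPM against 3.22, 4.13 and 3.57 CPM. Its groups overlapped and its change was poorly determined (log2 fold change 0.041 with a standard error of 0.21 and an edgeR adjusted p of 0.89).

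The 4 remaining effectors did not pass. Pidd1, the scaffold of the complex that activates caspase-2, was at 10.6 ± 0.396 and 9.38 ± 1.58 CPM (adjusted p = 0.29, edgeR). Casp6, an executioner caspase, was at 19.8 ± 2.93 and 17.03 ± 1.63 CPM (edgeR, log2 fold change -0.21 at an adjusted p of 0.14), and it passed as lower without replicate 3 of I/R (log2 fold change -0.34, adjusted p = 0.0076). Phlda3, an inhibitor of AKT at the membrane, was at 16.1 ± 3.15 and 16.0 ± 0.964 CPM, and Ei24, a membrane protein of the endoplasmic reticulum, at 41.5 ± 1.47 and 43.6 ± 1.76 CPM (adjusted p = 0.93 and 0.37, edgeR).

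Set per kilobase of transcript, so that genes can be compared with each other, the members ranged over more than 2 orders of magnitude. Cdkn2a was highest in I/R, at 160.3 ± 14.3 CPM per kilobase, above the range of every other member, and it was highest with chemerin-9 too, at 174 ± 8.01. Gadd45a followed in I/R at 108 ± 26.2 and Trp53 at 92.8 ± 4.55, and these overlapped. Plk2 came next at 61.6 ± 2.06, then Mdm2 at 44.1 ± 0.671 and Mdm4 at 43.2 ± 0.963, which also overlapped. Cdkn1a was number 16 of 33 in I/R, at 16.5 ± 1.20 CPM per kilobase, and number 19 with chemerin-9, at 11.1 ± 1.23. At the low end lay Aen at 3.17 ± 0.180, Pidd1 at 3.16 ± 0.118, Fas at 2.39 ± 0.376 and Sfn at 0.446 ± 0.248 (SD, n = 3 each). Of the 32 neighbouring pairs in this order, 16 overlapped in I/R and 18 with chemerin-9, so the order is fixed only in part. The length used was that of 1 GENCODE M21 transcript per gene, and another transcript would shift a gene's place. The coefficient of variation between libraries of a group had a median of 5.55% over the members in I/R and 5.94% with chemerin-9, and the largest was that of Sfn, at 55.8% and 27.2%.

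**Figure D3:**
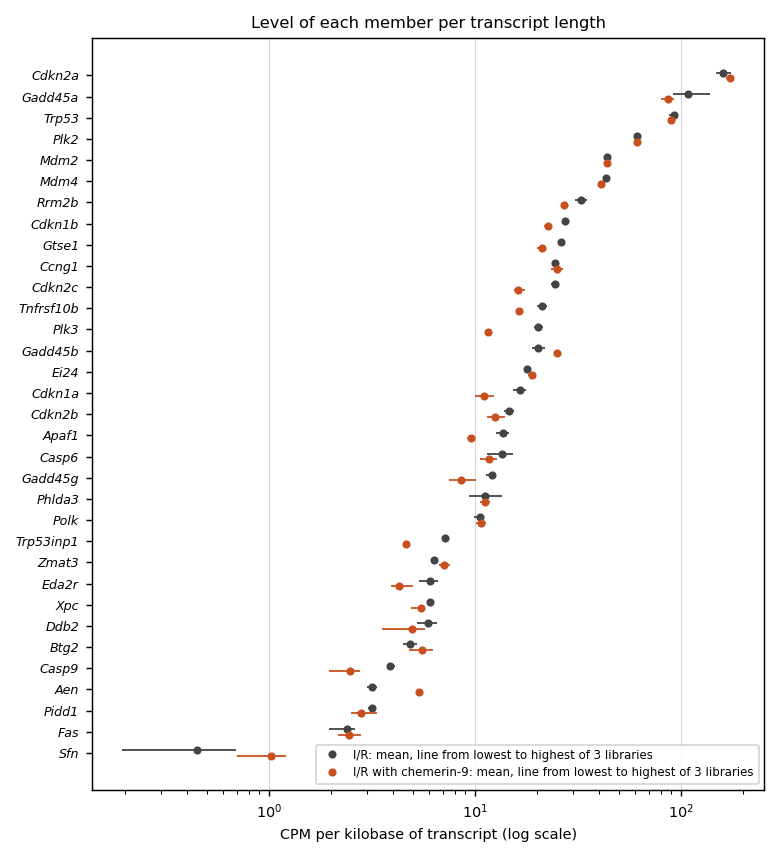
Levels of the 33 members are given as CPM per kilobase of transcript on a log axis, as the mean of 3 libraries with a line from the lowest to the highest, for I/R and for I/R with chemerin-9. Cdkn2a is at the top at 160.3 and 174 CPM per kilobase and Sfn at the bottom at 0.446 and 1.02.

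The other genes of the pathway were read from wider lists. Of 38 tested further genes often listed as p53 targets, 18 were lower and 6 higher, or 47.4% and 15.8%, against 26.1% and 25.6% of all genes, with a median log2 fold change of -0.19. The number that were higher was 3 without replicate 1 of chemerin-9. The 4 with the smallest p were Hspa4l, Ccnd1, Bok and Ckap2. Hspa4l, an HSP110-type chaperone, fell from 467 ± 13.8 to 215 ± 4.36 CPM. Ccnd1, which is also in the list of cyclins and CDKs below, rose by 0.83 on the log2 scale. Bok, a BCL2 relative of the mitochondrial death pathway, fell from 19.2 ± 0.973 to 9.13 ± 0.397 CPM. Ckap2, a spindle protein, fell from 144 ± 5.91 to 107 ± 2.17 CPM. Of the classic p53-induced death genes, named after their values were seen, Bbc3, which encodes PUMA, fell by 1.14 and Bax by 0.69 on the log2 scale (adjusted p = 2.0e-05 and 0.0023, edgeR). The Bax fall was smaller without replicate 3 of I/R, at 0.46 (adjusted p = 0.0039, edgeR). It was also 0.46 after correction for GC content and length (adjusted p = 0.0088, edgeR). Pmaip1, which encodes NOXA, was under the filter on low counts. Also named after their values were seen, Sesn2, a stress-induced sestrin, rose by 0.20 on the log2 scale, and Sesn1, its relative, fell by 0.23 (adjusted p = 0.017 and 0.028, edgeR), a call that DESeq2 did not make (adjusted p = 0.073).

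Of 27 tested regulators of p53, 8 were higher and 8 lower, or 29.6% each, against 25.6% and 26.1% of all genes, with a median log2 fold change of 0.037. Those with the smallest p were Npm1, the nucleolar protein that holds ARF, Ywhae, a 14-3-3 protein, Banp, a nuclear matrix factor, and Atr, the kinase that signals stalled replication. Npm1 fell from 1498 ± 54.4 to 1005 ± 16.5 CPM and Banp from 66.8 ± 2.62 to 42.8 ± 1.96 CPM. Ywhae rose from 731 ± 8.68 to 929 ± 6.07 CPM and Atr from 72.8 ± 2.24 to 104 ± 3.42 CPM. Npm1 has 4 processed pseudogenes at over 95% identity, the highest of them at 52.98 CPM, so its counts are uncertain.

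Of 28 tested cyclins, CDKs, pocket proteins and further cycle regulators, 8 were higher and 9 lower, or 28.6% and 32.1%, near the 25.6% and 26.1% of all genes, with a median log2 fold change of -0.020. Most of these act with or on the kinases that the inhibitors above hold. Changes of at least 1.5-fold that passed were seen in 6, or 21.4%, against 15.9% of all genes, and all 6 were rises, where all genes tested gave 1160 rises and 1100 falls. The INK4 gene Cdkn2d, named after its values were seen, fell from 30.8 ± 1.82 to 27.1 ± 0.814 CPM (adjusted p = 0.047, edgeR), a call lost without replicate 3 of I/R (0.186), with DESeq2 (0.124) and after correction for GC content and length (0.545). The CIP/KIP gene Cdkn1c was under the filter on low counts. Cdk6, the kinase held by the INK4 proteins, held 90.8, 92.1 and 94.7 CPM in I/R and 176, 171 and 172 CPM with chemerin-9, a rise of 1.87-fold (edgeR, log2 fold change 0.90 at an adjusted p of 1.8e-10). Its cyclin gene Ccnd1 rose from 33.5 ± 2.83 to 59.6 ± 3.95 CPM, and Rbl1, which encodes the pocket protein p107, from 219 ± 11.5 to 329 ± 4.12 CPM. Among the 6 rises, Rbl1 only just reached 1.5-fold, at a log2 fold change of 0.585. It was under 1.5-fold after correction for GC content and length (0.47) and without replicate 3 of I/R (0.55). Cdk2, the kinase held by p21 and p27, fell from 166 ± 6.199 to 119.8 ± 2.23 CPM (edgeR, log2 fold change -0.47 at an adjusted p of 2.4e-07). For Cdk6, Ccnd1, Rbl1 and Cdk2 the groups did not overlap. With library totals alone, 3 of the 28 were lower in place of 9.

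**Figure D4:**
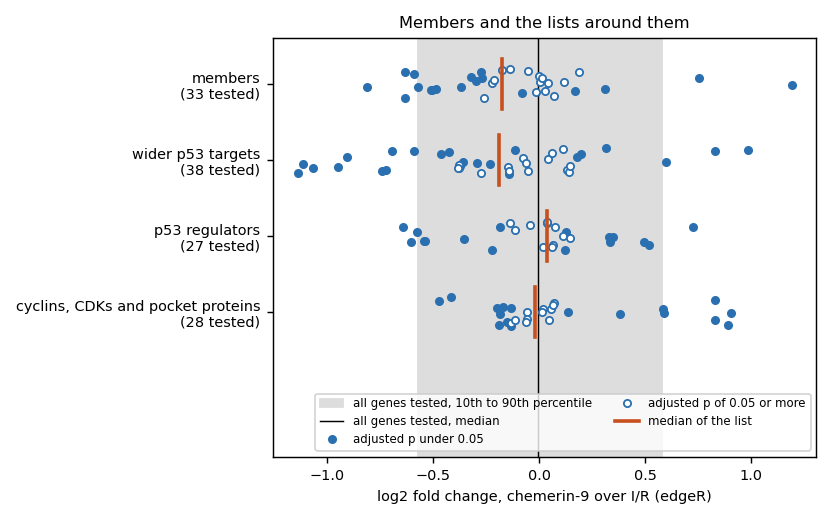
Each point is the log2 fold change of a tested gene, for the members and the 3 wider lists, filled where the adjusted p was under 0.05. The orange bar is the median of the list, and the grey band spans the 10th to the 90th percentile of all genes tested (-0.57 to 0.58). The medians of the members (-0.17) and of the wider p53 targets (-0.19) lie left of that of all genes (-0.0037), and the largest changes of the cyclin and CDK list are rises.

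Of the 18 calls among the members, 14 held in all 18 alternatives run, and the exceptions were Mdm4, Zmat3, Sfn and Gadd45a. The direction of a called member did not turn in any of these. Of the 15 members that did not pass, 3 passed in at least 1 alternative (Cdkn2a, Cdkn2b and Casp6). In the authors' deposited table, 12 members were lower and 2 higher at an FDR under 0.05, and all 14 are among the calls given here. That table rests on the same counts, with log2 fold changes of the members within 0.008 of those given here. The overlap is therefore not independent, and the share of all genes called there was not counted.

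**Figure D5:**
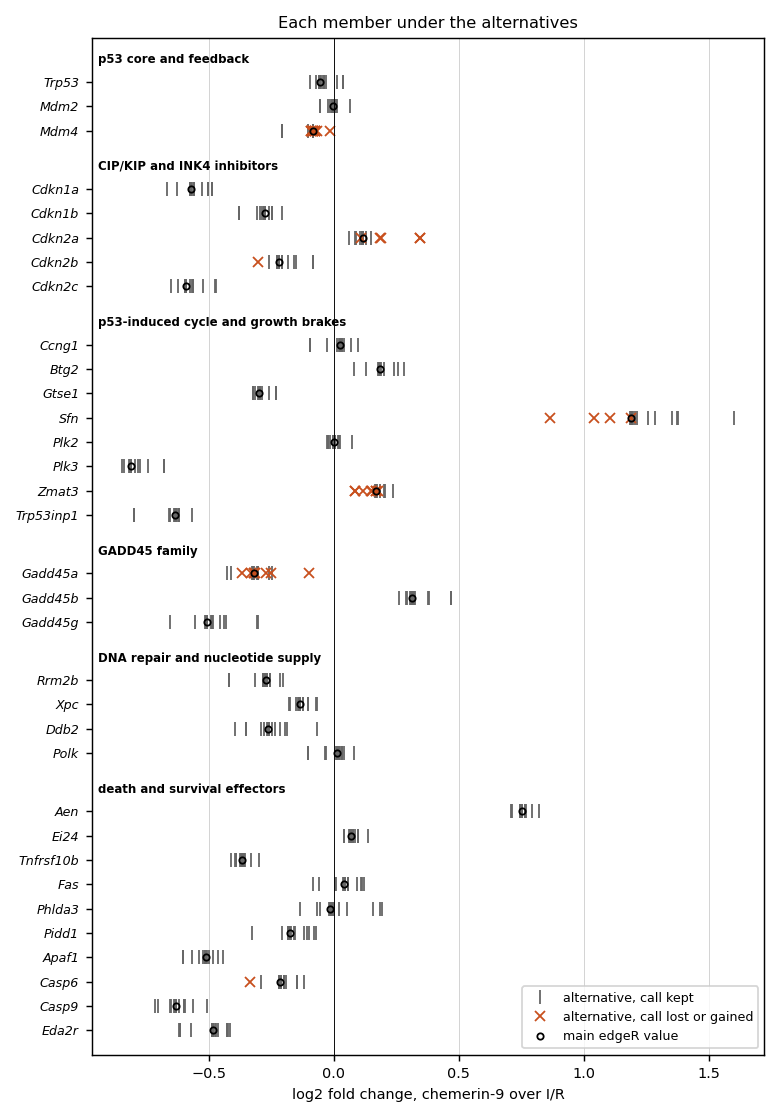
The log2 fold change of each member is shown under 18 alternatives as ticks, with an orange cross where the call was lost or gained and a circle for the value given in the text. Crosses occur for 7 members (Mdm4, Cdkn2a, Cdkn2b, Sfn, Zmat3, Gadd45a and Casp6), and all values of Cdkn1a lie between -0.67 and -0.49.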

How the data were processed

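RNA-seq of 6 libraries was used. Per the submitters' processing notes, HISAT2, HTSeq, DESeq 1.18.1 and build mm10 were used. The sources used here give neither strand setting nor annotation release. The deposited table holds raw counts per gene symbol, whole numbers with different totals. It also holds the authors' log2 fold change and FDR, an adjusted p-value per gene as deposited. Of 25216 rows, 27 repeats of a symbol with identical counts were dropped. Coordinates are those of the table, and 97.5% of its gene starts equal GENCODE M21 (GRCm38).

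Group differences in the counts came from edgeR 4.0.16 under R 4.3.3 (TMM size factors, filterByExpr by group, quasi-likelihood fit on group, Benjamini-Hochberg over 14184 genes, threshold 0.05). CPM use the TMM-adjusted library size. Standard errors are the log2 fold change over the root of the F statistic. A tested gene had a median of 295 counts in the shallowest library. The procedure was also run on simulated counts with few changed genes and the same dispersion for every gene. That setting is simpler than these data, so the run does not measure error rates here. Alternatives were DESeq2 1.42.0, limma 3.58.1 (voom), 3 other scalings, a robust prior, 2 other filters, a replicate block, GC content and transcript length trends removed, both together, a threshold of 0.01 and each library left out. Copies were searched with BLAST 2.17.0 (95% identity over 50% of the shorter transcript). Among the members Sfn, Rrm2b and Tnfrsf10b had one.

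Every member is named, and of each wider list the 4 genes with the smallest p at a mean of at least 1 CPM. Bbc3, Bax, Pmaip1, Sesn1, Sesn2, Cdkn2d and Cdkn1c fall outside this rule and were chosen after their values were seen. The members and lists were chosen with earlier results of these data known.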

Additional observations from a re-analysis of the deposited data

How the results depend on the processing

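The members' counts, 4 higher, 14 lower and 6 of at least 1.5-fold, moved by over 1.5 times in few of the 18 alternatives. At an adjusted p under 0.01, 2 members were higher, 3 of the wider p53 targets were higher and 5 cyclin and CDK genes were lower. With library totals alone, 3 members changed by at least 1.5-fold and 3 cyclin and CDK genes were lower, and the share of higher genes among all calls was 60.7% (4473 higher, 2891 lower), against 49.6% with TMM. Leaving out 1 library gave 2 to 4 higher members, the 2 being without replicate 1 of I/R or replicate 3 of chemerin-9, and 3 to 5 higher wider targets, the 3 being without replicate 1 of chemerin-9. Without the low-count filter, 31.5% of 24567 genes were called. Whether same-numbered libraries are paired is not known. Same-numbered deviations correlated at 0.102, -0.052 and 0.042, and differently numbered ones at -0.14 to 0.108. With 3 libraries per group these values cannot decide it. With the replicate block 13 members were lower and 4 higher, Mdm4 being the call lost (adjusted p = 0.073). No called member changed sign, and 7 members that did not pass had the opposite sign in some alternative. Depth limits Sfn and Fas most, at 4 to 28 and 37 to 64 counts per library.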
